A study of Mus musculus with 8 samples.

Results

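Photoreceptor transcription factors are the DNA-binding proteins and repressors that make a retinal precursor a rod or a cone and keep it one. The 10 genes considered here are Crx, Nrl, Nr2e3, Otx2, Rxrg, Thrb, Rorb, Neurod1, Samd7 and Prdm1, and every probe set with 1 of these symbols and no other in the platform annotation was taken. That gave 14 of the 45101 probe sets of the array, for 9 of the 10 genes. Nr2e3, the rod nuclear receptor, was not analysed here. Of the 14 probe sets, 13 were bright enough on average to be tested, for 8 genes. The probe set of Rxrg was not.

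RNA from 8 mouse retina samples was hybridised to Affymetrix expression arrays, 1 array per sample. The injected group was 4 retinas that had been injected, labelled as a compound-based treatment. Controls were 4 retinas taken fresh, with a time label of 0 d. The labels do not name the compound, its dose, the interval after injection, or the strain, sex or age of the mice. No sham-injected retina was compared, so injection, compound and handling cannot be told apart. Whether each sample is a separate mouse is not labelled, so p-values measure the spread between these samples, part of which may be technical.

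Otx2 is a homeodomain protein that acts at the start of the photoreceptor programme and switches on Crx, its close relative. Crx binds upstream of most rod and cone genes. Rorb acts upstream of Nrl, a leucine zipper protein that directs a precursor to the rod fate and induces Nr2e3, which represses cone genes in rods. Thrb and Rxrg encode nuclear receptors that can pair with each other and that set the opsin pattern of cones. Neurod1 maintains photoreceptors, Prdm1 (Blimp1) holds back the bipolar fate in photoreceptor precursors, and Samd7 is a Polycomb-associated repressor in rods. Otx2 is also made by bipolar cells and pigment epithelium, and Rorb by amacrine and horizontal cells, so a whole-retina value of these genes is not that of photoreceptors alone. In bulk tissue, fewer cells of a type and less RNA per cell cannot be told apart.

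The short DNA element that Crx and Otx2 recognise occurs upstream of some of the genes described below and not of others. For 5 genes that hold it and whose values are given, 150 bases upstream of the annotated start are shown. Capitals mark TAATCC, read as GGATTA on the opposite strand, or the variant TAATCT. Crx lies at chr7:15879956-15880105 (minus strand), Samd7 at chr3:30746143-30746292 (plus), the rod gene Guca1a at chr17:47400607-47400756 (minus), and the cone genes Gnat2 at chr3:108092916-108093065 (plus) and Arr3 at chrX:100605347-100605496 (plus). All are given 5′ to 3′ on the strand of the gene, from RefSeq on GRCm38.p6. The platform annotation names no genome build.
Crx: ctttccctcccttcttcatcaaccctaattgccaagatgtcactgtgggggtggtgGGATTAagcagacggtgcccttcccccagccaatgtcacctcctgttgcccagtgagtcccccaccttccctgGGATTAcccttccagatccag
Samd7: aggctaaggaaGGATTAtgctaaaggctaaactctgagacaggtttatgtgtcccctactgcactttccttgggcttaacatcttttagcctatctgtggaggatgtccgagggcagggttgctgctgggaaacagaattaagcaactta
Guca1a: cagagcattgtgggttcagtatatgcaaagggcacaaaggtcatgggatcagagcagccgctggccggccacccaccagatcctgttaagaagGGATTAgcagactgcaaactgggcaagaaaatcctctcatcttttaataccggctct
Gnat2: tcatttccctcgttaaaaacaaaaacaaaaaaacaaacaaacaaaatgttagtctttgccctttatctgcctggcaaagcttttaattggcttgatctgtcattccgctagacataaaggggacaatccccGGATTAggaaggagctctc
Arr3: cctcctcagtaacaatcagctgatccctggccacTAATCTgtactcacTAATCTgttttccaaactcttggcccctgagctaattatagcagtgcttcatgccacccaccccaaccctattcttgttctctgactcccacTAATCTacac

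The Crx window holds the TAATCC core at 94 and at 21 bases before the start, Samd7 holds it at 139, Guca1a at 57 and Gnat2 at 19. Arr3 holds TAATCT 3 times, at 116, 102 and 10 bases. In the 250 bases upstream, searched on both strands, TAATCC or TAATCT was found at an annotated start of 6 of the 10 genes, of 14 of 21 rod genes and of 4 of 9 cone genes that the RefSeq table holds, against 14.6% of its 27025 genes. TAATCC itself was found for Crx, Otx2, Samd7 and Thrb, and TAATCT for Nr2e3 and Rorb. Neither was found for Nrl, Rxrg, Neurod1 or Prdm1. The half-site TGCTGA of the Nrl family was found for Neurod1, Otx2 and Rorb, against 18.0% of all genes. Genes with several annotated starts were searched at each of them, which raises the share per gene. Per start, the 10 genes had TAATCC or TAATCT at 6 of 16 (37.5%), against 12.8% of all starts, and TGCTGA at 3 of 16 (18.8%), against 16.1%, a share near that of all starts. A match describes the letters in the window and shows no binding.

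At the brightest probe set of each gene, injected retinas had lower mean signal than controls at Crx and its partner Nrl, and higher at Samd7. The other genes differed less at that probe set. Crx was at -0.45 ± 0.19 and Nrl at -0.56 ± 0.27 log2 units, injected minus control, and Samd7 at 0.68 ± 0.21 (SE, n = 4 each). The groups overlapped at Nrl. The second Samd7 probe set was at 0.24 ± 0.36, and the second Rorb probe set, at -0.45 ± 0.27, was as low as Crx. None of the 13 probe sets passed the adjusted threshold of 0.05 in limma fitted over all 27022 tested probe sets, and neither did any other probe set of the array (0.00% called, smallest adjusted p 0.102). At an unadjusted p under 0.05 there were 2 of the 13 probe sets, 1 for Crx (lower) and 1 for Samd7 (higher), against 6.99% of all tested probe sets (3.33% lower, 3.66% higher). The same 2 were those at which the 4 injected and the 4 control values did not overlap, against 5.07% of all tested probe sets (2.60% lower, 2.47% higher). The words higher and lower below therefore describe these 8 arrays.

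Values are log2(intensity + 16) after quantile normalisation, and each gene is described first at its brightest probe set. Median centring moves the median of all tested genes to -0.17, against -0.01 with quantile normalisation. Under it the brightest probe sets were at -0.70 ± 0.26 for Crx, -0.77 ± 0.32 for Nrl, -0.51 ± 0.31 for Otx2 and -0.52 ± 0.29 for Rorb (SE). Thrb was at -0.24 and Prdm1 at -0.30. Relative to the all-gene median, Crx was at -0.53 and Nrl at -0.60, against -0.44 and -0.54 with quantile normalisation. Median-centred values of Neurod1 and Samd7 and some counts are given below.

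Crx, the homeodomain activator shared by rods and cones, had values of 13.61, 13.27, 13.14 and 13.68 in injected replicates 1 to 4, against 13.89, 14.04, 13.84 and 13.74 in control replicates 1 to 4. All injected values lay below all controls, with injected replicates 2 and 3 lowest and injected replicate 4 close to control replicate 4. The means were 13.43 ± 0.26 in injected and 13.88 ± 0.13 in control retinas (SD, n = 4 each), a 1.37-fold difference (limma adjusted p = 0.712, 95% interval -0.88 to -0.02). On the deposited scale, before any further normalisation, the injected intensities were 12723, 10108, 8203 and 12575, against 15319, 16997, 14667 and 14309 in controls, with the same separation.

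The second Crx probe set had 10.78, 10.94, 10.30 and 10.78 in injected retinas, against 10.91, 11.06, 12.10 and 11.26 in controls. It also differed downward, by -0.63 ± 0.28 (SE; limma adjusted p = 0.717), but injected replicate 2 stood above control replicate 1. Control replicate 3 was high, and without it the difference was -0.37.

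Otx2, the homeodomain protein upstream of Crx, had 14.15, 13.94, 13.52 and 14.41 in injected retinas, against 14.44, 13.85, 14.44 and 14.42 in controls. The groups overlapped, because control replicate 2 stood well below the other 3 controls. The difference was -0.28 ± 0.24 (SE; limma adjusted p = 0.776). It was -0.12 without injected replicate 3 and -0.43 without control replicate 2.

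Nrl, the leucine zipper activator of the rod fate, had 14.52, 13.81, 13.76 and 14.83 in injected retinas, against 14.94, 14.83, 14.47 and 14.89 in controls. Injected replicates 2 and 3 lay below every control, whereas injected replicates 1 and 4 lay inside the control range. The means were 14.23 ± 0.53 in injected and 14.78 ± 0.21 in control retinas (SD, n = 4 each), a 1.47-fold difference (limma adjusted p = 0.725, 95% interval -1.17 to 0.06).

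Rorb, the orphan receptor upstream of Nrl, is read by 3 probe sets. The brightest had 14.77, 14.45, 14.18 and 15.10 in injected retinas, against 15.25, 14.55, 15.08 and 14.83 in controls, and the groups overlapped. The differences of the 3 probe sets were -0.30 ± 0.25, -0.45 ± 0.27 and -0.09 ± 0.23 (SE), with adjusted p from limma of 0.772, 0.744 and 0.919. Without injected replicate 3 they were -0.15, -0.23 and -0.01.

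Neurod1, a basic helix-loop-helix factor, had the smallest difference of the 8 tested genes. Its brightest probe set had 15.84, 15.84, 15.48 and 15.74 in injected retinas, against 15.79, 15.60, 15.73 and 15.60 in controls. The difference was 0.04 ± 0.17 (SE; limma adjusted p = 0.948), with a 95% interval from -0.34 to 0.42, which does not show that the groups are alike. The second probe set was at -0.04 ± 0.20. Under median centring the first was at -0.10, which is 0.07 above the median of all genes under that scaling.

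Prdm1, which holds back the bipolar fate, had 10.96, 11.29, 10.25 and 10.52 in injected retinas, against 10.87, 10.73, 11.21 and 10.93 in controls. Injected values lay above, inside and below the control range, and the difference was -0.18 ± 0.25 (SE; limma adjusted p = 0.845). It was -0.36 without injected replicate 2 and -0.01 without injected replicate 3.

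Samd7, the rod repressor, had 11.13, 10.94, 11.28 and 10.88 in injected retinas, against 10.36, 10.05, 10.28 and 10.82 in controls. All injected values lay above all controls, with control replicate 4 close to injected replicate 4. The means were 11.06 ± 0.18 in injected and 10.38 ± 0.33 in control retinas (SD, n = 4 each), a 1.6-fold difference (limma adjusted p = 0.613, 95% interval 0.20 to 1.16). The deposited intensities were 2277, 1797, 2453 and 1993 in injected retinas, against 1307, 991, 1217 and 1699 in controls.

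The other Samd7 probe set did not show this separation. It had 10.05, 10.97, 9.39 and 9.20 in injected retinas, against 9.75, 9.73, 9.65 and 9.50 in controls. Its injected values spread far to both sides of the tightly placed controls, with a difference of 0.24 ± 0.36 (SE; limma adjusted p = 0.851). Injected replicate 2 set its sign, and without that array the difference was -0.11. Under median centring the groups of the first probe set overlapped and its difference was 0.53 ± 0.25.

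The cone receptors gave the least information. Thrb had 9.71, 10.38, 10.09 and 9.50 in injected retinas, against 9.33, 10.11, 10.53 and 10.41 in controls, with groups that overlapped and a difference of -0.17 ± 0.31 (SE; limma adjusted p = 0.880, 95% interval -0.87 to 0.52). The difference was -0.42 without control replicate 1, and -0.03 without control replicate 3 or without injected replicate 4. Rxrg had 9.01, 8.06, 7.84 and 6.24 in injected retinas, against 8.42, 7.43, 6.71 and 8.71 in controls. Its mean lay at percentile 29.1 of all probe sets, under percentile 40, the level set for testing. Its values spread widely in both groups, and its difference was -0.03, untested.

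**Figure D1:**
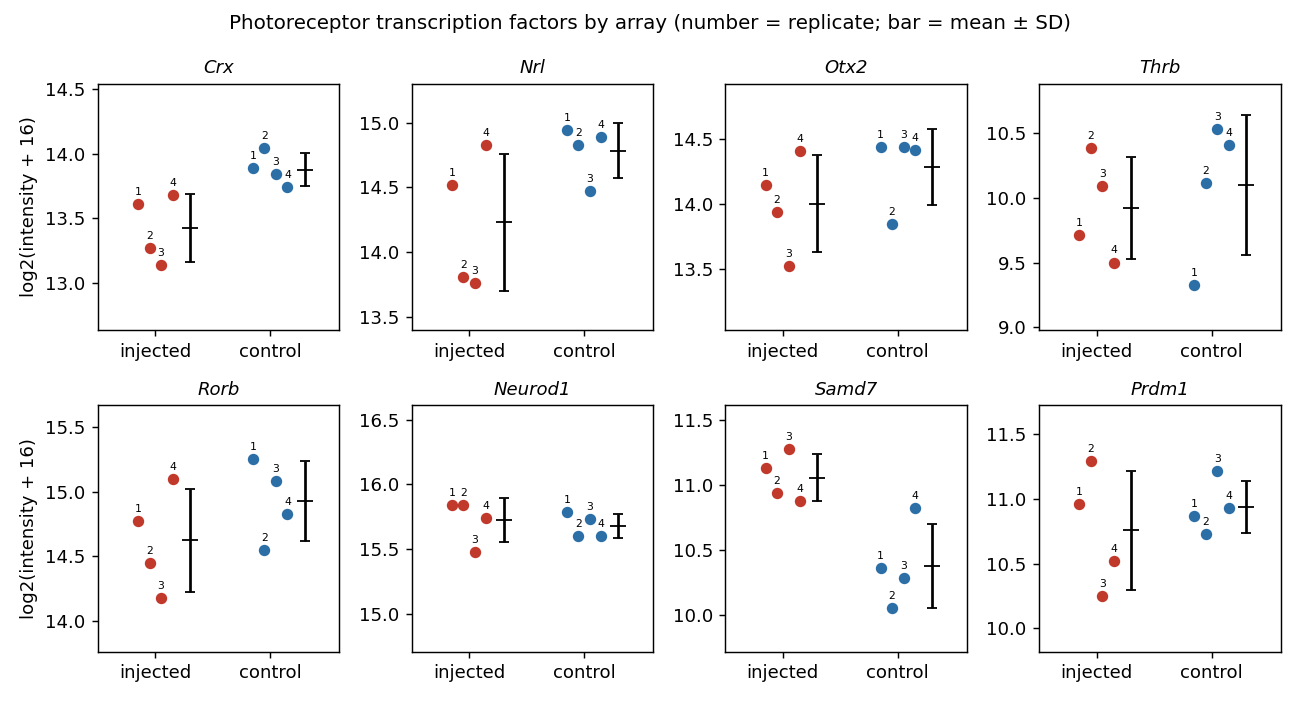
Log2(intensity + 16) after quantile normalisation for the 8 tested genes, each at its brightest probe set, with 1 point per array (injected left, control right), numbers for replicates and black bars for the mean ± SD of 4 arrays; each panel spans the same log2 range. Only the Crx panel has all injected points below the controls, at 13.14 to 13.68 against 13.74 to 14.04, and only the Samd7 panel has them all above, at 10.88 to 11.28 against 10.05 to 10.82.

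**Figure D2:**
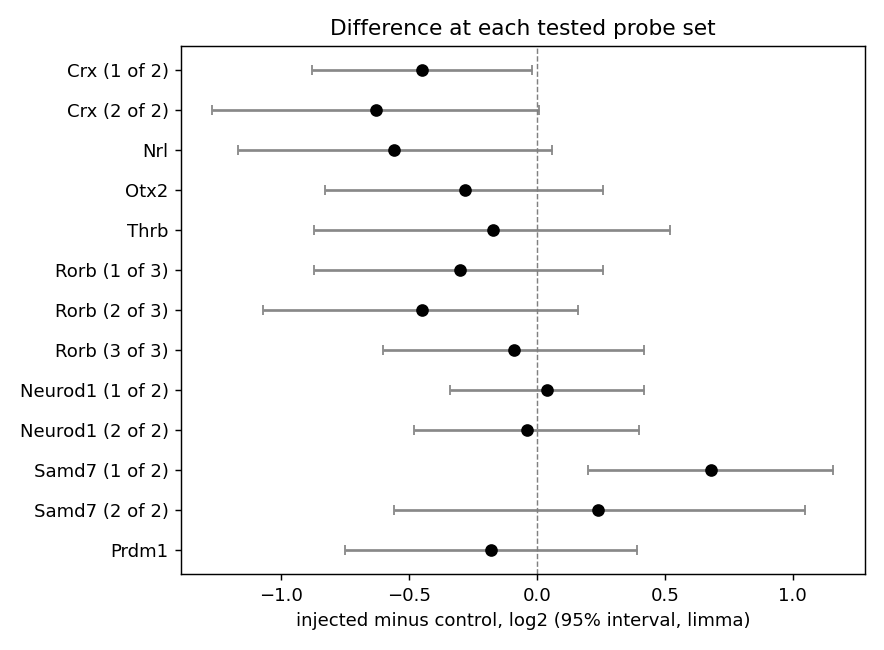
Injected minus control in log2 units at the 13 tested probe sets, with 95% intervals from limma; probe sets of a gene run from brightest to dimmest. The intervals of the brightest Crx (-0.88 to -0.02) and Samd7 (0.20 to 1.16) probe sets leave out 0 before adjustment for 27022 tests, and the other 11 include it.

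Of the 8 tested genes, 6 were lower and 2 higher in injected retinas, with a median difference of -0.23, against a median of -0.01 and 51.5% lower over all 12886 tested genes. Under median centring 7 were lower and 1 higher, but there 8893 of all 12890 tested genes were lower. That shift also bears on the median-centred counts of other lists below. Differences of the 8 genes ran from -0.56 to 0.68. Among all tested genes, 6.90% were lower than Nrl in this comparison and 10.6% lower than Crx, and 96.0% were lower than Samd7.

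Crx, Nrl, Otx2 and Rorb fell in the same order on the 4 injected arrays, but not on the controls. Control replicate 2 was the highest control for Crx (0.16) and the lowest for Otx2 (-0.43) and Rorb (-0.38), relative to the control mean. All 4 were lowest in injected replicate 3. Relative to the control mean, Crx was at -0.26, -0.61, -0.74 and -0.20 in injected replicates 1 to 4, and Nrl at -0.27, -0.98, -1.03 and 0.05. Otx2 was at -0.13, -0.35, -0.77 and 0.12, and Rorb at -0.16, -0.47, -0.75 and 0.17. Injected replicates 2 and 3 were thus the low ones for each of these 4 genes, and injected replicate 4 lay at or above the control mean for 3 of the 4. Thrb, Neurod1, Prdm1 and Samd7 did not follow this order. Low values in replicates 2 and 3 were not limited to photoreceptor genes. The mean of the Müller glia genes was at -0.10, -0.37, -0.38 and -0.12 in injected replicates 1 to 4. The median absolute deviation of all genes from the control mean was 0.55 in injected replicate 3, against 0.21, 0.25 and 0.26 in injected replicates 1, 2 and 4.

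As a description over the 8 arrays, which share a normalisation and hold whole retina, Pearson's r was 0.94 between Otx2 and Rorb, and 0.93 after each group's mean was taken off. It was 0.89 between Crx and Nrl, and 0.84 after group means were taken off. Other pairs were lower, with Nrl at 0.75 with Rorb and 0.71 with Otx2 (0.68 and 0.62 within groups). Crx was at 0.67 with Rorb and 0.59 with Otx2 (0.58 and 0.45 within groups). Samd7 ran the other way from Crx, at -0.85, and at -0.57 within groups.

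The profile most like that of Crx over the 8 arrays was Rgs8 (r = 0.981), followed by Mrpl24 (0.977) and Wnk4 (0.974). For Nrl it was Slc16a6 (0.982), then Mtrf1l (0.973) and Ier5 (0.970). For Samd7 it was Pde3b (0.963), then Ndufaf6 (0.961) and Ebf2 (0.957). These are the closest of 12886 genes over 8 points, a setting in which high values are reached easily.

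Rod and cone genes, many of which these regulators control, leaned towards lower signal in injected retinas, the cone genes in all cases and the rod genes in most. All 12 tested cone genes had negative differences, with a median of -0.43, and 5 of them (41.7%) had groups that did not overlap, against 5.5% of all tested genes. Of 26 tested rod genes, 21 had negative differences, with a median of -0.29, and 2 (7.69%) had groups that did not overlap, a share near that of all genes. The 5 positive rod genes included Impg1 at 0.27 ± 0.20 and Pde6a at 0.21 ± 0.18 (SE). A lean like that of the rod genes was also seen in lists of other cells. Of 11 ganglion cell genes 9 were lower (median -0.26), of 12 Müller glia genes 9 (-0.22) and of 9 bipolar genes 7 (-0.25). The shares without overlap in either direction were 27.3%, 25% and 11.1%. Of 12 pigment epithelium genes 11 were lower, of 13 amacrine and horizontal genes 7, of 10 microglia genes 1 and of 6 lens genes 0. Under the deposited scaling 18 rod genes were negative and 5 had groups that did not overlap, and under median centring 24 and 9. Of all 12890 genes tested there, 6110 were negative under the deposited scaling and 8893 under median centring. Those negative with groups that did not overlap numbered 319 and 601. All 12 cone genes stayed negative under both scalings, with 5 and 6 that did not overlap. None of these passed the adjusted threshold in limma. The lists were chosen with earlier results of these data known, so their shares beside those of all genes are descriptions and not tests.

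The mean of the cone genes stood at -0.48, -0.91, -1.10 and -0.29 in injected replicates 1 to 4, against -0.06 to 0.05 in controls. The mean of the rod genes stood at -0.24, -0.50, -0.51 and -0.15, against -0.06 to 0.10 in controls. In both groups of genes the injected replicates fell in the same order as for Crx and Nrl, with replicate 3 lowest, then replicate 2, 1 and 4.

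The short-wavelength cone opsin Opn1sw had 11.13, 10.03, 9.44 and 12.15 in injected retinas, against 12.76, 12.63, 12.95 and 12.70 in controls. Its injected values kept the order of Nrl, with a difference of -2.07 ± 0.51 (SE; limma adjusted p = 0.517). Arr3, cone arrestin, whose upstream window holds the 3 TAATCT elements printed above, was at -0.77 ± 0.19, and Gnat2, the cone transducin subunit, at -0.79 ± 0.26. The medium-wavelength opsin Opn1mw was at -1.39 ± 0.33 and the channel subunit Kcne2 at -1.30 ± 0.33. In all 5 genes the groups did not overlap.

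Among the genes listed as rod genes, Guca1a, a guanylate cyclase activator with the printed TAATCC element, was at -1.14 ± 0.33 (SE). Reep6, an endoplasmic reticulum protein of rods, was at -0.87 ± 0.25. Grk1, a photoreceptor kinase that shuts off the light response, was at -2.10 ± 0.63 with an injected mean of 7.79, under the level set for testing. Pde6b, a subunit of the rod phosphodiesterase, was at -0.64 ± 0.24. Adjusted p values in limma ran from 0.582 to 0.709 for these 4. Whether their signal came from rods alone was not tested. The 9 rod genes with a TAATCC match ran from Guca1a to Rbp3 at 0.19 ± 0.21. Between them were Unc119 at -0.64 ± 0.35, Cnga1 at -0.33 ± 0.27 and arrestin Sag at -0.30 ± 0.21. Abca4 was at -0.11 ± 0.24, Aipl1 and Gngt1 both at -0.03, and Cngb1 at 0.05 ± 0.21. Pde6b had no match. Whether a match goes with a direction was not tested. The rod transducin subunit Gnat1 was at -0.29 ± 0.26 and phosducin Pdc at -0.08 ± 0.16.

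**Figure D3:**
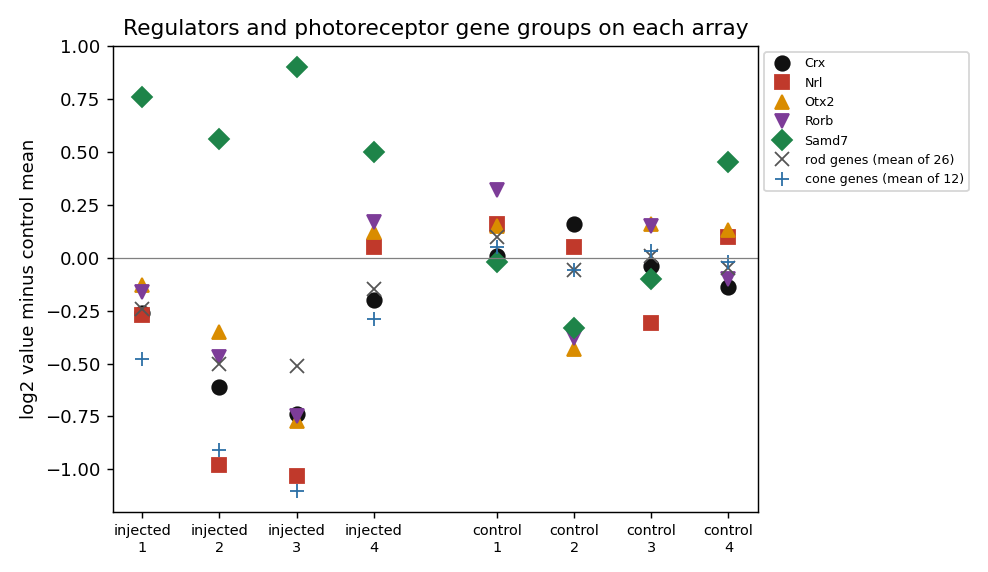
Log2 value minus the control mean for Crx, Nrl, Otx2, Rorb and Samd7 (brightest probe sets) and for the mean of 26 rod and 12 cone genes, on each of the 4 injected (left) and 4 control (right) arrays. Injected replicates 2 and 3 are low for all but Samd7, which lies between 0.50 and 0.90 on the injected arrays and between -0.33 and 0.45 on the controls.

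Partners, paralogs and cofactors of the 10 genes differed about as much as genes in general, with a median absolute difference of 0.22, equal to that of all tested genes. Of 21 tested, 14 were lower and 7 higher (19 and 2 under median centring), with a median of -0.16. None (0) had an unadjusted p under 0.05, against 6.68% of all tested genes, and 1 (4.76%) had groups that did not overlap, against 5.5%. That gene was Mef2c, a MADS-box transcription factor, at -0.40 ± 0.19 (SE; limma adjusted p = 0.725). Rxrb, a retinoid X receptor related to Rxrg, was at -0.41 ± 0.20, and Rora, the paralog of Rorb, at -0.32 ± 0.20. Samd11, the paralog of Samd7 in the same repressor complex, was at -0.03 ± 0.18, and the Polycomb subunits Phc2, Bmi1 and Rnf2 at 0.22 ± 0.19, -0.18 ± 0.21 and 0.06 ± 0.18. The thyroid receptor Thra, the paralog of Thrb, was at 0.01 ± 0.20.

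Transcription factors of progenitors and of other retinal fates went both ways. Of 20 tested, 13 were lower and 7 higher (16 and 4 under median centring), with a median of -0.11, and 0 passed the adjusted threshold in limma. Groups did not overlap at 3 that were lower and 1 that was higher (20%), against 5.5% of all tested genes. That share was 25% for the 8 tested photoreceptor factors. At an unadjusted p under 0.05 in limma there were 2 lower and 2 higher (20%), against 6.68% of all tested genes. Atoh7, which specifies ganglion cells, was at -0.86 ± 0.23 (SE; limma adjusted p = 0.554) and Onecut2, a factor of horizontal cells and early precursors, at 1.05 ± 0.30 (adjusted p = 0.582). Vsx1, a bipolar homeodomain factor, was at -0.61 ± 0.24. Hes5, a Notch effector, was at 1.62 ± 0.70 with groups that overlapped and an SD of 1.69 in injected retinas. Isl1 and Six3 were at -0.01 ± 0.16 and 0.02 ± 0.31.

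**Figure D4:**
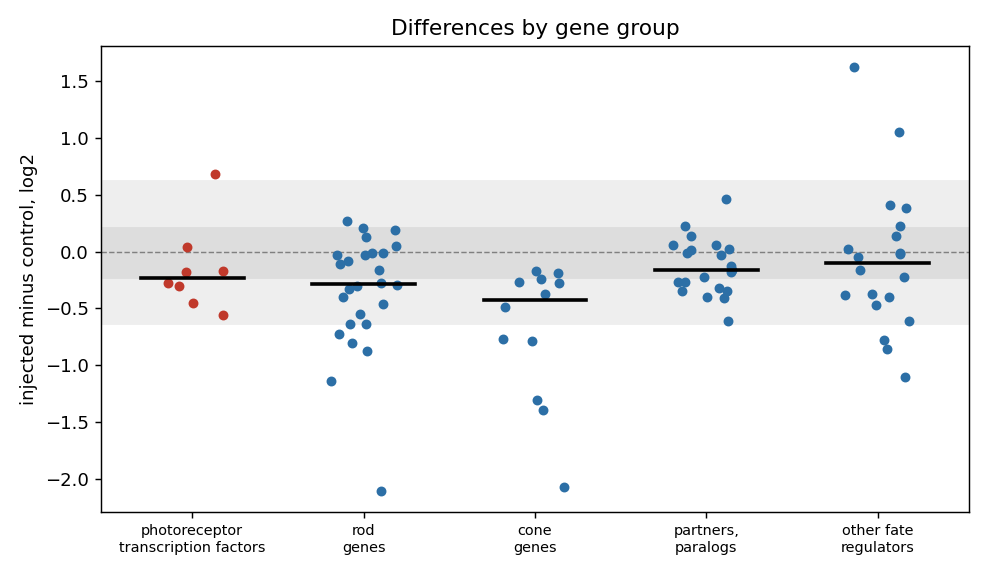
Injected minus control in log2 units for single genes of 5 groups, each at its brightest tested probe set, with black lines for medians, light grey for the 5th to 95th percentile of all 12886 tested genes (-0.64 to 0.62) and darker grey for the 25th to 75th (-0.23 to 0.21). The transcription factors (median -0.23) lie mostly within the light band, and the cone genes (median -0.43) reach lowest together with Grk1 of the rod genes.

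Other quantities of the arrays also varied, and of those given next only the Gapdh ratio kept the groups apart. Median intensity per array ran from 519 to 766 in injected and from 495 to 584 in control retinas. The array's Gapdh control gave a ratio of 3′ to 5′ signal of 5.26 to 8.82 in injected and 3.36 to 4.68 in control retinas (p = 0.0286 by an exact permutation test, two-sided, which is the lowest value possible with 4 arrays a group). For beta-actin the ratios were 43.3 to 59.7 and 39.2 to 57.2 (exact permutation p = 0.486). Injected replicate 3 had the highest Gapdh ratio and the lowest array weight, 0.191 against 0.646 to 1.83 on the other 7 arrays. The part of RNA quality in the values of Crx, Nrl, Otx2 and Rorb was not tested. Without injected replicate 3 the difference was -0.35 for Crx, -0.39 for Nrl and 0.62 for Samd7.

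Markers of other cells moved as well. Of 12 tested pigment epithelium genes, which share Otx2 with photoreceptors, 11 were lower in injected retinas, with array means relative to control from -1.58 to -0.22 in injected and from -0.86 to 1.46 in control retinas. Control replicate 2, which had the most pigment cell signal, had the least Otx2 signal among controls, but this is 1 array. The other controls had Otx2 at 14.42 to 14.44 with pigment cell means from -0.86 to 0.10. Among injected retinas, replicate 3 had the highest pigment cell mean (-0.22) and the lowest Otx2 (13.52). Replicate 4 had the lowest pigment cell mean (-1.58) and the highest Otx2 (14.41). Replicates 1 and 2 went the other way, with means of -0.87 and -1.16 and Otx2 at 14.15 and 13.94. A relation between pigment cell and Otx2 signal was not tested. Of 10 microglia genes 9 were higher and 6 had groups that did not overlap, against 5.5% of all tested genes. Their array means ran from 0.44 to 1.01 in injected and from -0.19 to 0.28 in control retinas. Under median centring 8 were higher and 1 had groups that did not overlap. That scaling moved the median of all genes to -0.17, and 180 of 12890 genes were higher without overlap. Bipolar genes, which also share Otx2, ran from -0.51 to -0.10 in injected and from -0.21 to 0.25 in control retinas, with 7 of 9 lower. Of 11 listed lens genes 6 were tested, and these 6 were higher. Their array means ran from 0.15 to 4.25 in injected and from -1.41 to 1.53 in control retinas. Crygd and Crybb2 had control means of 7.44 and 8.07, under the level set for testing, and injected means of 9.90 and 11.16. They were tested only through their injected values, so the count of higher lens genes partly follows from that level. Amacrine and horizontal genes, which share Rorb, ran from -0.16 to 0.12 in injected and from -0.09 to 0.08 in control retinas, ganglion cell genes from -0.41 to -0.18 and from -0.03 to 0.08, and Müller glia genes from -0.38 to -0.10 and from -0.09 to 0.09. The part of the makeup of the tissue in the results was not tested.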

How the data were processed

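Gene expression was measured on 8 Affymetrix arrays, 4 injected and 4 control, grouped by their titles. The authors deposited 1 linear intensity for every probe set on every array. With 2% trimmed from both ends, each array averages 2500, which points to scaling to 1 target; the software is not given in the sources used here. Scaling of this kind hides a change in total RNA. The 64 array control probe sets were left out, which left 45037, of which 34945 had 1 symbol. Array medians differed by a ratio of 1.55, over the limit of 1.5, so intensities were quantile-normalised in limma 3.58.1 (R 4.3.3) and taken as log2(intensity + 16), which understates changes of dim genes. Probe sets with a mean at or above the 40th percentile (log2 value 8.5, about 345 intensity units) were tested, 27022 in all. Detection calls were not used.

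Groups were compared with lmFit and eBayes and Benjamini-Hochberg adjustment. On 5 simulated data sets of this size limma called 15.2% of simulated shifts of 1 log2 unit and 70.8% of shifts of 2. No set test was run. Members and lists were chosen with earlier results of these data known. The naming rule took all member probe sets, the 4 smallest p per list, and the 3 closest profiles to Crx, Nrl and Samd7. The text names some of these. Gnat1, Sag, Pdc, Gnat2, Impg1, Pde6a, Rbp3, Cngb1, Aipl1, Gngt1, Unc119, Cnga1 and Abca4 were added after their values were seen. So were Rora, Samd11, Phc2, Bmi1, Rnf2, Thra, Isl1 and Six3. Lists were 30 rod, 13 cone, 28 fate regulator and 27 partner genes, and markers of 7 other cell types; 6 fate regulators are also in a marker list. Alternatives were pseudocounts of 1 and 64, no filter, deposited scaling, median centring, array weights (statmod 1.5.0), a replicate block, a trended robust prior, each array left out, and 2 arrays left out together. Same-numbered arrays did not deviate together (correlations of deviations -0.03 to 0.08), so the numbers were not taken as pairs. The precision is limited by the number of arrays. Upstream sequences came from RefSeq (GRCm38.p6). Figures used matplotlib 3.10.9 in Python 3.11.15.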

Additional observations from a re-analysis of the deposited data

Results flagged for a closer look

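Of 26 groups of 4 values checked at the 13 tested probe sets, 2 held a value far from the other 3, and chance gives about 1 in 20. Otx2 in control replicate 2 was at 13.85, against 14.42 to 14.44 in the other controls. Rorb, at its second probe set, was at 13.20 in injected replicate 3, against 14.01 to 14.14 in the other injected retinas.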

How the results depend on the processing

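The median difference of the tested genes, -0.23, stayed negative under every alternative run, from -0.41 (median centring) to -0.13 (without injected replicate 3), and was -0.23 with the replicate block. Leaving out each array gave -0.32 to -0.13. The count of genes whose groups did not overlap, 2, became 1 under median centring, where Samd7 overlapped, and ranged from 2 to 3 when arrays were left out. Over the 13 probe sets the smallest adjusted p under any of 17 alternatives was 0.469. Over all probe sets, array weights called 7 higher and 1 lower, and leaving out each array called 0 to 29 higher and 0 to 5 lower, the most without injected replicate 4. Signs turned only close to 0 or with 1 array: the second Neurod1 probe set was at 0.02 with deposited scaling, 0.00 without control replicate 2 and injected replicate 3 together, 0.07 without injected replicate 3 and 0.05 without control replicate 1. The first was at -0.10 under median centring. Without injected replicate 2 the third Rorb probe set was at 0.00 and the second Samd7 probe set at -0.11. Leaving out each array in turn gave this Rorb probe set -0.25 to 0.00 and this Samd7 probe set -0.11 to 0.48. The cause was not tested. The number of arrays sets what can be detected, and signal over background is unknown for Rxrg, which was dim.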
